A study of Homo sapiens with 16 samples.

Results

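RNA sequencing compared MDA-MB-468 with MDA-MB-231 cells, each after 48 hours in 5 mM glucose. Both are established human breast cancer cell lines that lack the estrogen receptor by common classification. The comparison used the 4 replicate libraries of each line in 5 mM glucose, 8 of the 16 samples of a study that also cultured both lines in 25 mM glucose. A gene was included if it reached at least 0.5 CPM (a gene's reads relative to the library total) in 2 or more of the 8 libraries, which held for 16637 of the 18332 genes in the table. The medium held no serum during the treatment, whereas before it MDA-MB-231 was kept in DMEM and MDA-MB-468 in RPMI, so that line and earlier medium cannot be told apart. Each group is 1 line, and the labels do not say whether the replicates came from separate cultures, so the p-values measure only the spread between these samples, which may be technical.

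Breast epithelial cells are joined by E-cadherin junctions, tight junctions and desmosomes, and their cytoskeleton is built from keratins, of which a basal set marks cells next to the basement membrane. Cells with a mesenchymal program replace these with vimentin and make more fibrillar matrix. ZEB, SNAI and TWIST factors repress epithelial genes, in part through E-box letters in their promoters, while Grainyhead-like factors, OVOL factors and the splicing factors ESRP1 and ESRP2 maintain the epithelial state.

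Library sizes ran from 14275499 to 24425916 reads, of which 5.81% to 6.13% fell on the 10 most abundant genes. No library was a copy of another, since the chi-square of replicate pairs was 2.02 to 5.2 per gene, above what counting alone gives. Along the leading principal component, with 94.7% of the variance, the lines lay apart. Neither sequencing dates nor batches are named in the labels, which leaves no within-batch values to give.

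In limma, 14287 genes (85.9% of those tested) differed between the lines at an adjusted p under 0.05. Of the genes tested, 7529 (45.3%) were higher in MDA-MB-468 and 6758 (40.6%) were higher in MDA-MB-231. With at least a 2-fold difference in addition, 4273 (25.7%) were higher in MDA-MB-468 and 3491 (21%) in MDA-MB-231. These last 2 shares are the background for every gene list below, and a gene is counted as higher in a line only if it met both conditions. The rest of the 14287 called genes were under 2-fold apart, so that this is common among all genes. Fold changes are on the scale of log2(normalized read count + 1), MDA-MB-468 minus MDA-MB-231, with a median of 0.08 and a median absolute value of 0.93. At least 32-fold separated 1287 called genes, of which 704 were higher in MDA-MB-468 and 583 in MDA-MB-231. The values of the lines did not overlap in 13526 genes (81.3%). Scaling to library totals moved the median fold change by 0.14 and a correction for transcript length moved it by -0.14, and the balance of the calls moved with them. With the length correction 6534 genes were higher in MDA-MB-468 and 7225 in MDA-MB-231, and at 2-fold or more 3631 and 3791, the reverse of the order above, so no direction is given for the genes as a whole.

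**Figure D1:**
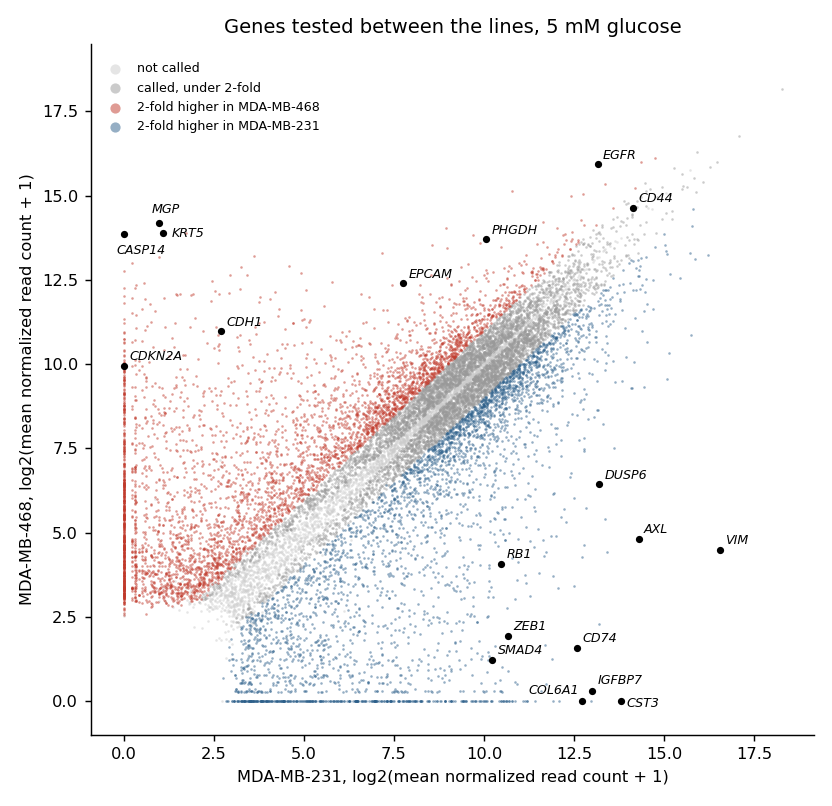
Mean normalized read count of each of the 16637 genes tested, as log2(mean + 1), in MDA-MB-231 (horizontal) and MDA-MB-468 (vertical), with n = 4 libraries per line in 5 mM glucose. Genes at least 2-fold apart and called are red or blue, and the lines of points at 0 on an axis are genes with no reads in that line.

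The labels were checked against marker genes. CDH1, which encodes E-cadherin, had normalized read counts of 1941, 2062, 1987 and 2039 in MDA-MB-468 and of 4.29, 4.89, 6.71 and 6.17 in MDA-MB-231. VIM, which encodes vimentin, had 26.9, 25.4, 15.8 and 18.0 in MDA-MB-468 against 99379, 93985, 97669 and 93877 in MDA-MB-231. The 4 libraries of each line lay far from those of the other line for both genes, in the direction known for these lines. EGFR, the epidermal growth factor receptor, was at 60648, 62950, 62406 and 64730 in MDA-MB-468 and at 9091, 8977, 9178 and 9304 in MDA-MB-231. RB1 and SMAD4, tumor suppressors known to be lost in MDA-MB-468, were at 15.9 ± 4.52 (SD, n = 4) and 1.35 ± 1.12 there against 1421 ± 81.5 and 1203 ± 40.5 in MDA-MB-231.

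Hormone receptor genes and ERBB2 were read as markers of both lines. ESR1, the estrogen receptor gene, was at 57.9 ± 7.87 in MDA-MB-468 and 1.31 ± 1.01 in MDA-MB-231, that is at 3.68 and 0.0753 CPM. ERBB2, the HER2 gene, was at 61.3 CPM in MDA-MB-468 and 87.7 CPM in MDA-MB-231, with normalized read counts of 964 ± 79.5 and 1522 ± 148. PGR, the progesterone receptor gene, was not analyzed here.

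Epithelial junction genes were higher in MDA-MB-468 almost throughout. Of 39 listed adhesion genes, 38 were found, 37 passed the low-value filter and 30 were higher in MDA-MB-468, against 1 in MDA-MB-231. The median log2 fold change was 3.31, compared with 0.08 for all genes. CDH1 differed by 8.28 on the log2 scale with a standard error of 0.12 (adjusted p 1.27e-12 in limma) and EPCAM, an epithelial surface antigen, by 4.65 (SE 0.05, adjusted p 1.91e-13). EPCAM was still at 198 to 235 in the 4 libraries of MDA-MB-231, so this line did not lack the transcript. RAB25, a GTPase of apical recycling, was at 2017, 1861, 1973 and 1937 in MDA-MB-468 and had no reads in any library of MDA-MB-231, at least 746-fold lower against a floor of 3 reads per library. PRSS8, which encodes the surface protease prostasin, had 7419 reads over the MDA-MB-468 libraries and 1 read in MDA-MB-231, and the desmosomal cadherin gene DSC3 had 7150 reads and 1 read.

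A few junction genes did not follow. PPL, the gene of the desmosomal plaque protein periplakin, was at 490, 476, 531 and 422 in MDA-MB-231 and had no reads in MDA-MB-468, at least 158-fold lower. DSG2, a desmosomal cadherin found in most epithelia, was lower in MDA-MB-468, with a log2 difference of -0.66 (adjusted p 2.29e-07 in limma), at 1812 ± 113 against 2867 ± 115. The plaque genes TJP1 (-0.06) and PKP2 (0.06), chosen after their values were seen, were not called. TJP1 was at 2160 in MDA-MB-468 and 2250 in MDA-MB-231.

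All 13 epithelial regulators were tested and all 13 were higher in MDA-MB-468. Their median log2 fold change was 6.43, or 4.89 with the 2 genes that had no reads in MDA-MB-231 set at their lower bound. GRHL2, a Grainyhead-like factor that maintains junction genes, was at 2316, 2316, 2479 and 2398 in MDA-MB-468 and at 0.714, 3.91, 0 and 2.06 in MDA-MB-231. ESRP1, which directs epithelial splicing, was at 3688 ± 82.1 against 12.5 ± 2.25, and ELF3, an epithelial ETS factor, at 3918 ± 203 against 15.6 ± 7.84.

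Of 12 mesenchymal regulators, 10 passed the filter, of which 7 were higher in MDA-MB-231, compared with 2 in MDA-MB-468, with a median of -2.88 (-2.15 with genes at their bound). ZEB1 was at 1662, 1538, 1607 and 1742 in MDA-MB-231 and at 4.74, 2.21, 2.63 and 1.80 in MDA-MB-468, a log2 difference of -8.79 with a standard error of 0.20 (adjusted p 2.54e-11 in limma). SNAI2 and ZEB2 had no reads in any MDA-MB-468 library and were at 380 ± 28.2 and 282 ± 9.45 in MDA-MB-231, at least 125-fold and 92.9-fold higher. The regulators did not all follow this pattern. TWIST1 had no reads in the 8 libraries, and SNAI1 was at 22.3 and 20.5 and was not called. TWIST2 was at 27.9 in MDA-MB-468 without a read in MDA-MB-231, and SNAI3 was at 40.2 against 11.2. These 4 genes were chosen after their values were seen.

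**Figure D2:**
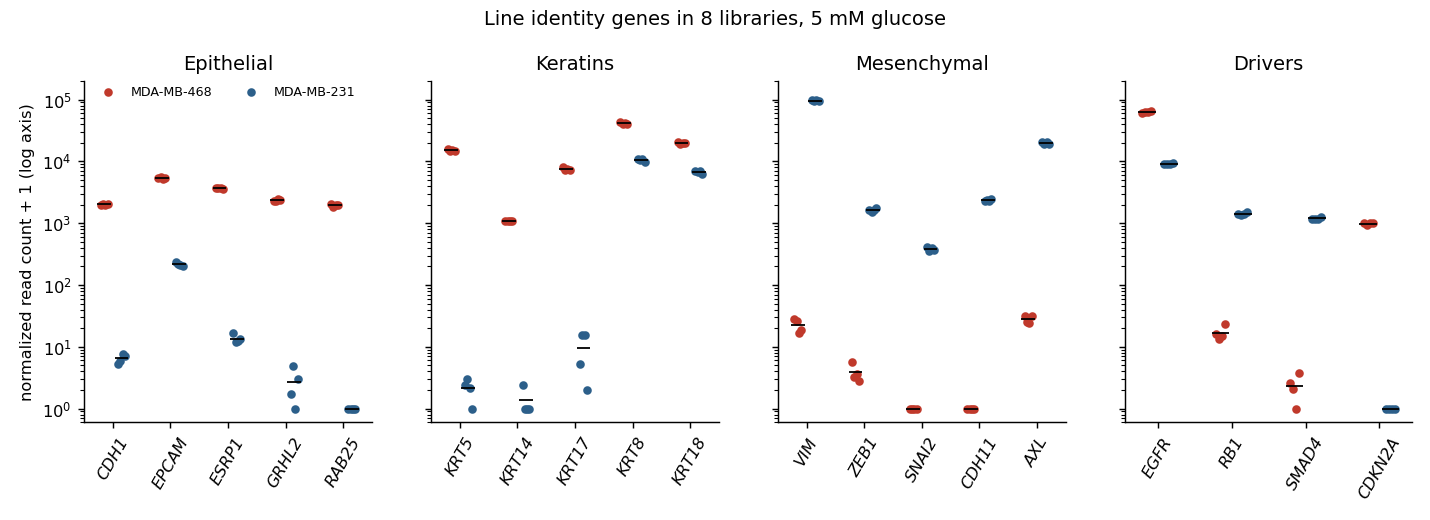
Normalized read count plus 1 (log axis) of epithelial, keratin, mesenchymal and driver genes in each of the 4 MDA-MB-468 libraries (red) and 4 MDA-MB-231 libraries (blue) in 5 mM glucose. Points are libraries and black lines are means. For each gene the red and the blue points do not overlap, and points at 1 are libraries with no reads.

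Promoter sequences show where the letters bound by ZEB and SNAI factors lie in epithelial genes. CACCTG on either strand, the E-box form these factors bind, was searched in RefSeq promoters of build GRCh38.p14, from 250 bases before to 50 bases after each start site. Of the 39 adhesion genes, 23 had an entry, with 35 start sites, and 17 of the 35 windows (48.6%) held the letters, against 20.6% of all 35116 windows and 3 of 47 windows (6.38%) of mesenchymal structure genes. The epithelial regulators did not share the high figure of the adhesion genes. They held the letters in 3 of 13 windows (23.1%), near the share of all windows. Windows of 1 gene can overlap in sequence, so they are not independent. For genes at least 2-fold higher the share was 24.1% in MDA-MB-468 and 17.2% in MDA-MB-231, against 19.1% for genes tested. The AP-1 letters TGANTCA were found in 6.58% of the windows of genes higher in MDA-MB-468 and 7.43% of those higher in MDA-MB-231, against 5.58% of the windows of genes tested and 7.71% of all windows. The Grainyhead-like letters AACCNGTT were found in 2.01% and 1.49%, against 1.54% of the windows of genes tested and 1.73% of all windows. None of these matches is shown to be a bound site.

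CDH1 and EPCAM had no promoter entry, so the shares above do not cover them and their promoters are not shown. The promoters shown are that of VIM and those of 3 adhesion genes, which were chosen after their matches were seen, because they hold the letters. Each run gives the 250 bases up to the start site, 5′ to 3′ on the gene's strand, with CACCTG or its reverse complement CAGGTG in capitals. The VIM window is chr10:17227991-17228240 (plus strand), that of CLDN7 is chr17:7262479-7262728 (minus), that of AP1M2 is chr19:10587313-10587562 (minus) and that of RAB25 is chr1:156060910-156061159 (plus).
VIM: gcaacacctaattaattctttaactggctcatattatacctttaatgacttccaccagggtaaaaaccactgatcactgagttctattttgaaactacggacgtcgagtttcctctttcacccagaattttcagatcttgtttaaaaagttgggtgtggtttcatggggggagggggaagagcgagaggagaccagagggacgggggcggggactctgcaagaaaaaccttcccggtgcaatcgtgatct
CLDN7: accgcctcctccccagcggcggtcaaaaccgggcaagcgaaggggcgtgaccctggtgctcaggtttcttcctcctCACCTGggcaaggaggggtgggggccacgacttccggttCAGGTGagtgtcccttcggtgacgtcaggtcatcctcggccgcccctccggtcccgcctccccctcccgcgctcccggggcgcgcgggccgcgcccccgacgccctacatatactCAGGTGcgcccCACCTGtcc
AP1M2: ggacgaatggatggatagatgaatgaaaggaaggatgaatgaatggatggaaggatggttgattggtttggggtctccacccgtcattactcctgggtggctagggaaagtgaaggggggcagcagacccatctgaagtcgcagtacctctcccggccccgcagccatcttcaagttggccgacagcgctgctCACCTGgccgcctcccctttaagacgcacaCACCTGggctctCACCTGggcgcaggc
RAB25: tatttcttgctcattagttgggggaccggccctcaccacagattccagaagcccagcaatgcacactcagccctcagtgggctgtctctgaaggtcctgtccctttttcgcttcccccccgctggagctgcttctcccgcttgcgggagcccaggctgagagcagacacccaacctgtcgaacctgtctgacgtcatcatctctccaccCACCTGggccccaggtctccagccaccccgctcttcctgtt
The CLDN7 run holds 4 copies, AP1M2 holds 3, RAB25 holds 1 and VIM holds 0. CLDN7 had another start site, at which the window held 0 copies. CLDN7, a claudin of tight junctions, was at 3111 ± 113 in MDA-MB-468 and 313 ± 23.2 in MDA-MB-231 (log2 difference 3.31, adjusted p 2.91e-12 in limma). AP1M2, which encodes an epithelial clathrin adaptor subunit, was at 5358 ± 141 and 541 ± 27.0. CLDN7 and AP1M2 were expressed in the line with ZEB1, whereas RAB25 had no reads there.

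Keratins were mostly higher in MDA-MB-468, with a median log2 fold change of 8.76 for basal and 1.77 for simple epithelial members. Of 15 keratins tested, 13 were higher in MDA-MB-468 and 0 in MDA-MB-231, with a median log2 fold change of 4.14 (3.33 with genes at their bound). All 7 basal keratins were higher. KRT5 was at 15726, 14567, 15486 and 14822 in MDA-MB-468 and had 5 reads over the 4 MDA-MB-231 libraries. KRT17, a basal keratin of injured epithelium, was at 7581 ± 309 and 8.63 ± 7.02. KRT14, KRT16 and KRT17 are close in sequence, as are KRT6A and KRT6B, and reads could be divided between them. KRT8 and KRT18, the partners of simple epithelia, were at 10578 ± 469 and 6684 ± 286 in MDA-MB-231, with log2 fold changes of 1.97 (SE 0.04) and 1.57 (SE 0.03). Per kilobase of transcript, KRT8 stood at 1476 CPM and KRT5 at 430 CPM in MDA-MB-468, while VIM stood at 2576 CPM and KRT8 at 342 CPM in MDA-MB-231.

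Structural genes of mesenchymal cells were mostly higher in MDA-MB-231, but 3 went the other way. Of 28 tested, 18 were higher in MDA-MB-231, compared with 3 in MDA-MB-468, with a median of -3.28, and 6 more did not pass the filter. VIM differed by -12.09 (SE 0.14, limma adjusted p 3.65e-13). CDH11, a mesenchymal cadherin, was at 2316, 2354, 2317 and 2486 in MDA-MB-231 and had no reads in MDA-MB-468, at least 780-fold lower. AXL, a receptor tyrosine kinase, was at 20058 ± 817 against 27.1 ± 3.66, and FN1, the fibronectin gene, chosen after its values were seen, was at 34665 ± 773 against 750 ± 36.3. TPM1 (tropomyosin, log2 fold change 2.36), TNC (tenascin C, 1.21) and PDGFRA (a growth factor receptor, 5.72) were higher in MDA-MB-468. PDGFRA was at 95.7 ± 7.26 there, whereas MDA-MB-231 had 4 reads in all. CDH2, the N-cadherin gene, was low in both lines, at 0.553 and 7.52, and did not pass the filter.

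Collagens were mostly higher in MDA-MB-231, with exceptions among type IV and V chains. Of 18 tested, 11 were higher in MDA-MB-231, compared with 4 in MDA-MB-468, with a median of -4.32. COL6A1, a chain of type VI collagen, was at 6907, 6627, 7164 and 6506 in MDA-MB-231 with no reads in MDA-MB-468, at least 2240-fold lower. COL6A2 had no reads either (at least 131-fold lower), and COL5A1 was at 3394 ± 140 in MDA-MB-231 with 2 reads in MDA-MB-468. The chain that pairs with it, COL5A2, went the other way, at 721, 711, 646 and 690 in MDA-MB-468 and at 14.3, 4.89, 10.1 and 12.3 in MDA-MB-231. The adjacent basement membrane genes COL4A5 (log2 fold change 3.09) and COL4A6 (4.00) were also higher in MDA-MB-468.

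Matrix receptors and proteases followed distinct sets in each line. Of 21 integrins and laminins, 14 were higher in MDA-MB-231, compared with 3 in MDA-MB-468, with a median of -2.04. ITGA5, the fibronectin receptor subunit, was at 4100 ± 331 in MDA-MB-231 against 29.1 ± 1.93 in MDA-MB-468 (log2 fold change -7.09). ITGB6, a subunit restricted to epithelia, was at 1216 ± 11.9 in MDA-MB-468 with 6 reads in MDA-MB-231. Of 25 proteases and inhibitors tested, 11 were higher in MDA-MB-468 and 14 in MDA-MB-231, so that every one tested was at least 2-fold apart. The 5 kallikreins found were all higher in MDA-MB-468, among them KLK5 at 3032 ± 125. The tissue plasminogen activator gene PLAT was at 9414 ± 371 in MDA-MB-231 against 3.84 ± 3.32 in MDA-MB-468, and MMP1, the interstitial collagenase, was at 1022 ± 33.3 with no reads in MDA-MB-468. MMP7 (matrilysin) and the secretory inhibitor SLPI showed the reverse, at 3904 ± 32.1 and 3977 ± 176 in MDA-MB-468 with 2 reads and 1 read in MDA-MB-231.

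Factors and markers used to type breast tumors were mostly higher in MDA-MB-468. Of 22 tested, 15 were higher in MDA-MB-468 and 3 in MDA-MB-231, with a median of 2.71. Among 12 basal genes tested, 10 were higher in MDA-MB-468 and 0 in MDA-MB-231. VGLL1, a TEAD cofactor, was at 3620 ± 171 in MDA-MB-468 and GABRP, a GABA receptor subunit used as a basal marker, at 412 ± 43.6, both with no reads in MDA-MB-231. FOXA1, a pioneer factor of luminal cells, was at 339 ± 23.7 with 1 read in MDA-MB-231. Of the 10 luminal genes tested 5 were higher in MDA-MB-468 and 3 in MDA-MB-231. None of these last 3 met both limits for naming, at least 5 CPM in the higher line and no overlap between the lines. SPDEF (-0.50) and SOX9 (-0.30) were called but under 2-fold.

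**Figure D3:**
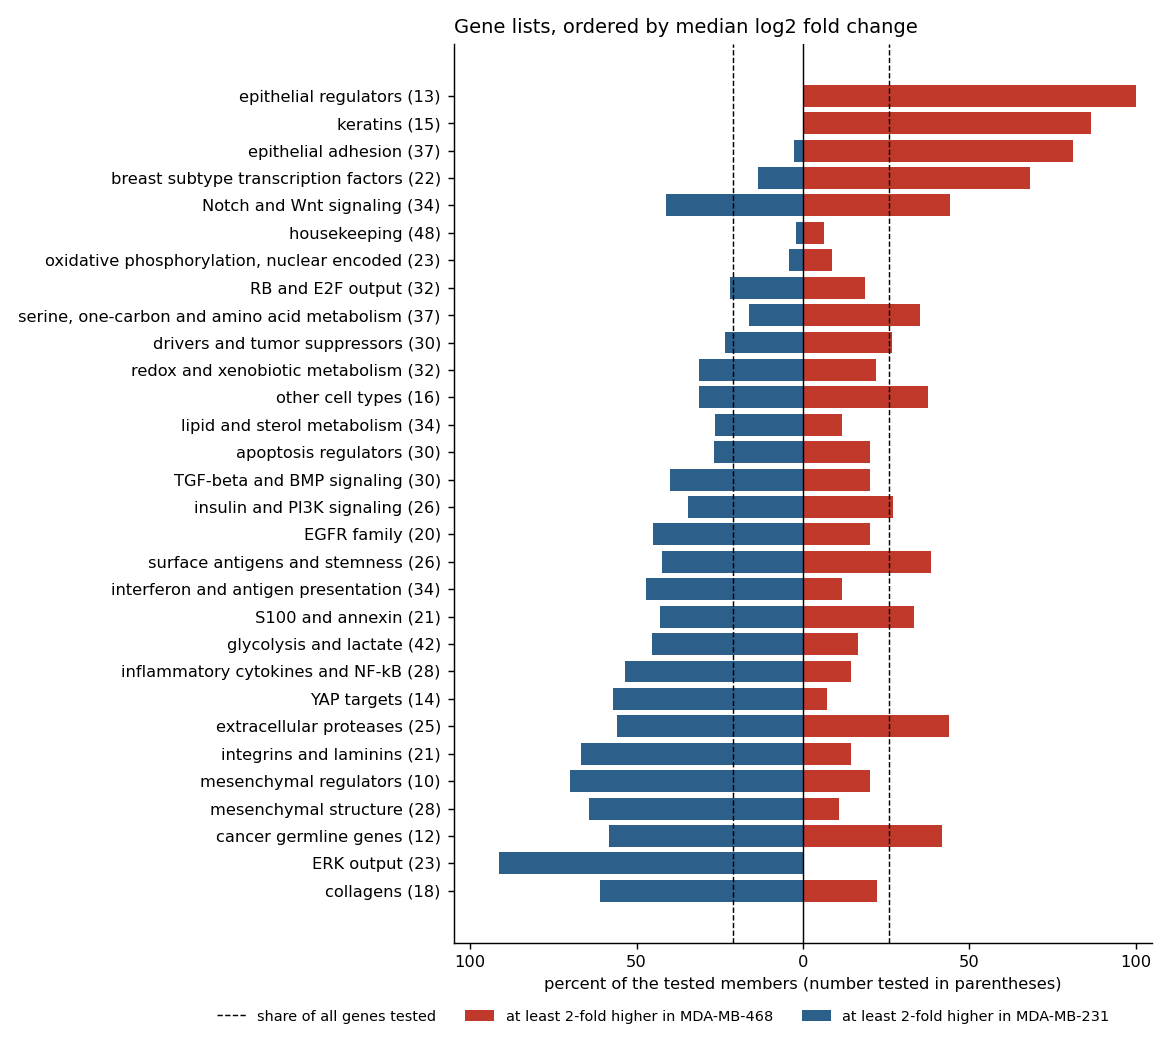
Percent of the tested members of each gene list that were called and at least 2-fold higher in MDA-MB-468 (red, to the right) or MDA-MB-231 (blue, to the left), with the number tested in parentheses and lists ordered by median log2 fold change. Dashed lines are the shares over all genes tested, 25.7% and 21%. All 13 epithelial regulators lie on the right, 21 of 23 ERK output genes lie on the left, and the housekeeping bars lie inside the dashed lines.

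Several driver genes and cell-cycle inhibitors were all but absent from 1 of the lines. Of 30 listed, 8 were higher in MDA-MB-468 and 7 in MDA-MB-231, close to the shares over all genes, with a median of 0.01. CDKN2A, which encodes the inhibitors p16 and ARF (GRCh37 chromosome 9, 21967751 to 21995300), was at 1010, 947, 989 and 1002 in MDA-MB-468 and had no reads in any MDA-MB-231 library, at least 378-fold lower. CDKN2B, its neighbor, which encodes p15, was at 904 ± 18.3 with no reads in MDA-MB-231, at least 346-fold lower. RB1, on chromosome 13 from 48877880 to 49173572, was between 12.2 and 22.5 in the MDA-MB-468 libraries and at 1383, 1358, 1402 and 1540 in MDA-MB-231 (log2 difference -6.43, standard error 0.16, adjusted p 4.46e-11 in limma). At 1.01 CPM it stayed above the floor of 3 reads, which was 0.151 to 0.210 CPM in these libraries. The growth factor receptor genes FGFR1 and FGFR2 went in opposite directions, with FGFR1 at 453 ± 4.45 in MDA-MB-468 and 3900 ± 77.0 in MDA-MB-231, and FGFR2 at 300 ± 17.9 in MDA-MB-468 with 4 reads in MDA-MB-231.

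The genes next to each locus were compared, 5 tested genes on each side. Around CDKN2A, 8 neighbors had no reads in MDA-MB-231, from KLHL9 before it to DMRTA1, whose start lies 479 kilobases from that of CDKN2A. They included MTAP, a methionine salvage enzyme gene, at 1052 in MDA-MB-468 (at least 403-fold), and KLHL9 at 410 (at least 157-fold). ELAVL2, the next gene out, was at 0.245 in MDA-MB-231, and TUSC1 beyond it was at 126 in MDA-MB-468 and 155 in MDA-MB-231. The absence of reads was thus a property of a stretch of adjacent genes and not of CDKN2A alone.

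Around EGFR (chromosome 7, 55086710 to 55279321) the genes next to it were higher in MDA-MB-468, with larger log2 fold changes than EGFR. SEC61G, a translocon subunit gene, was at 14501 against 830 (log2 fold change 4.13), LANCL2 at 16976 against 492 (5.11) and VOPP1 at 35972 against 1752 (4.36), compared with 2.78 for EGFR. Not all neighbors shared this. Before EGFR, GRB10 (-1.36) was lower, HAUS6P3 (-1.20) was not called (adjusted p 0.0823 in limma), and DDC, further out, was higher in MDA-MB-468 (4.06). After it, FKBP9P1 (-0.17) was not called. PSPHP1, by its name a copy of PSPH, was higher (2.90), with 67 reads against 5, which may include PSPH reads. EGFR-AS1 lies within EGFR, and how the counting used strand is not given in the sources used here, so its 3.49 may hold EGFR reads. PSPH, a serine synthesis gene further along the chromosome (56078744 to 56119297), chosen after its values were seen, was at 5638 ± 174 against 886 ± 61.4.

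A gene next to SMAD4 and a gene within the bounds of RB1 were lower in MDA-MB-468. ELAC1, just before SMAD4, was at 1.34 in MDA-MB-468 and 27.4 in MDA-MB-231, while ME2 (0.62) and MEX3C (-0.04) on either side of the pair were at 771 and 1008 in MDA-MB-468. RCBTB2, annotated inside the bounds of RB1 (49063099 to 49107392), was at 10.5 against 68.2, and reads of the overlapping genes may not be told apart. ITM2B, just before RB1, was at 1792 against 2265. DNA copy number was not analyzed here, so the part of gene dosage was not tested.

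**Figure D4:**
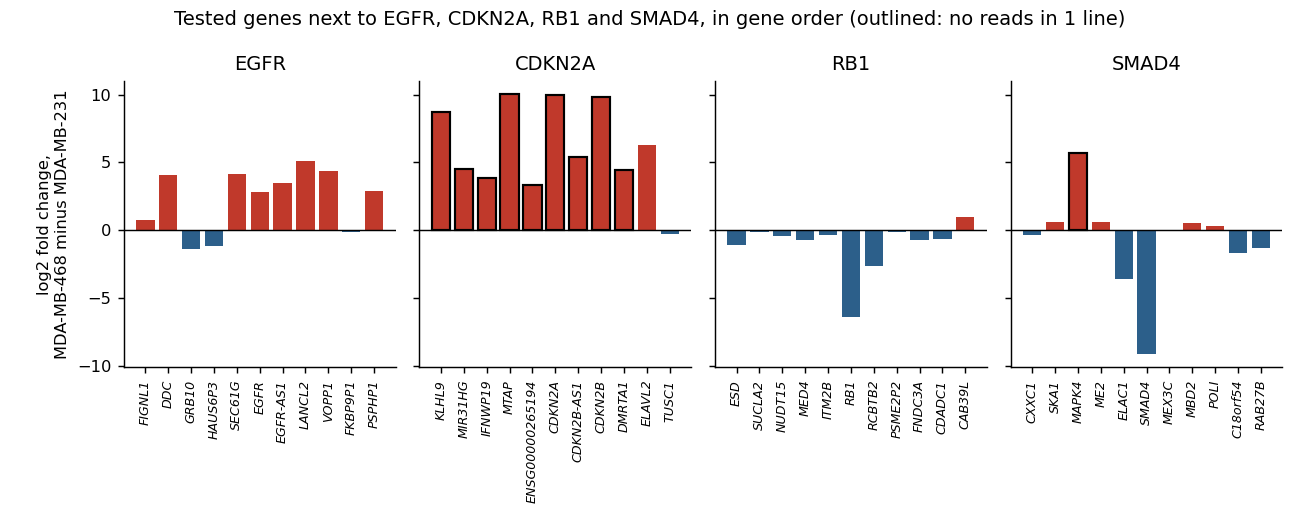
Log2 fold change, MDA-MB-468 minus MDA-MB-231, of EGFR, CDKN2A, RB1 and SMAD4 and of the 5 nearest tested genes on each side, in chromosome order. Red bars lie above 0 and blue bars below it, called or not, and outlined bars are genes with no reads in 1 line, for which the height depends on the added 1. CDKN2A and 8 of its neighbors are outlined, and MAPK4 near SMAD4.

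Silent genes were counted by reads. At most 3 reads in each library of 1 line and at least 5 CPM in each library of the other was met by 321 genes silent in MDA-MB-231 and 262 silent in MDA-MB-468. Of these, 151 and 145 had no reads at all in the silent line. In the expressing line the median was 21.6 CPM for the genes silent in MDA-MB-231 and 17.4 CPM for those silent in MDA-MB-468, and 74 and 62 genes reached 50 CPM. In the separate 25 mM libraries, 271 of the 321 and 233 of the 262 met the same limits. These counts are a description, since a gene enters only by its difference.

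The most abundant genes silent in MDA-MB-231 included secreted, cytoskeletal and transport proteins. CASP14, a caspase of cornifying skin, was at 941 ± 19.7 CPM in MDA-MB-468 with no reads in MDA-MB-231, at least 5667-fold. MGP, the matrix Gla protein, was at 18843 ± 752 normalized reads with 4 reads in MDA-MB-231. FXYD3, a regulator of the sodium pump, was at 440 ± 11.1 CPM (at least 2650-fold), and KRT23 at 312 ± 7.69 CPM (at least 1878-fold). The immune checkpoint ligand VTCN1 (5158 ± 178), the Wnt and BMP antagonist SOSTDC1 (5459 ± 125), the arginine deiminase PADI2 (9230 ± 191), the glutamate transporter SLC1A6 (8134 ± 332) and the myosin heavy chain MYH14 (4856 ± 135) each had between 1 and 4 reads in all of MDA-MB-231. AZGP1, a secreted glycoprotein, was at 15255 ± 443 with 10 reads in MDA-MB-231, and was not silent by the limit of 3 reads in each library, since 1 library held 4.

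Cystatins led the genes silent in MDA-MB-468. CST3, which encodes the cathepsin inhibitor cystatin C, was at 821 ± 56.6 CPM in MDA-MB-231 and had no reads in MDA-MB-468, at least 4689-fold lower. CST1 (at least 2649-fold) and CST4 (at least 1277-fold) had none either, although CST1, CST2 and CST4 are near-identical and their reads could be divided among them. IGFBP7, a secreted growth factor binding protein, was at 8204 ± 222 with 1 read in MDA-MB-468. EDIL3, an integrin ligand, was at 253 ± 17.2 CPM (at least 1444-fold) and BEX3, a small X-linked adaptor, at 158 ± 2.07 CPM (at least 905-fold). The teneurin gene TENM3 (3050 ± 104) had a total of 1 read in MDA-MB-468 and the filamin gene FLNC (3793 ± 198) had 6.

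Some silent genes were neighbors. Runs of at least 3 consecutive tested genes silent in the same line numbered 7 in MDA-MB-231, with 23 genes, and 6 in MDA-MB-468, with 27 genes. The genes of these runs and beside them were chosen after their values were seen. The longest run was 10 genes over 450 kilobases of chromosome 16 (GRCh37, 4560670 to 5010742), silent in MDA-MB-468. From CDIP1 to PPL it held 8 genes with no reads there, among them the chromatin genes UBN1 (108 ± 2.21 CPM in MDA-MB-231) and GLYR1 (61.8 ± 3.43 CPM). HMOX2, just before the run, was not silent but was lower in MDA-MB-468, at 47.3 against 516.5 in MDA-MB-231 (log2 fold change -3.45). NMRAL1, further out, was at 595 against 298, and SEC14L5 after the run was at 289 against 3.71. The absence of PPL reads, given above among desmosomal genes, came with no reads in 7 adjacent genes, 1 read of MGRN1 and 4 reads of CDIP1.

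Other runs silent in MDA-MB-468 held the cystatins CST3, CST4, CST1 and CST2, the ARMCX genes and the BEX and TCEAL genes of chromosome X, and FOXA2 with LINC00261 and THBD. Of the 7 runs silent in MDA-MB-231, 2 held homeobox genes. The other runs held COLCA1, POU2AF3 and POU2AF1, FXYD6, TMPRSS13 and TMPRSS4, ZNF667, its antisense gene and ZNF471, LINC01508, DIRAS2 and SYK, and the cancer germline genes MAGEA12, CSAG1, CSAG2 and MAGEA3. HOXC13, HOXC12, HOTAIR and HOXC11 had no reads there and stood at 12.6 to 29.1 CPM in MDA-MB-468, and HOXC10 next to them was at 656 ± 24.2 with no reads in MDA-MB-231. HOXA3 and its antisense neighbors were likewise silent, with HOXA4 and HOXA5 at 50.4 and 53.9 in MDA-MB-468 and no reads in MDA-MB-231. Over whole chromosomes the median log2 fold change ran from -0.54 on chromosome 4 to 0.88 on chromosome 21.

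Receptors and ligands of the EGFR family were split between the lines. Of 20 members, 4 were higher in MDA-MB-468 and 9 in MDA-MB-231, with a median of -0.58. EGFR (log2 difference 2.78, standard error 0.03, adjusted p 8.75e-14 in limma) and ERBB3 (3.24) were the receptors higher in MDA-MB-468, and the feedback inhibitor LRIG1 (4.34) was higher there as well. Among 8 ligands, 0 were higher in MDA-MB-468 and 6 were higher in MDA-MB-231. AREG, the amphiregulin gene, was at 334, 344, 333 and 348 in MDA-MB-231 and at 3.95, 2.21, 5.25 and 8.98 in MDA-MB-468. NRG1, the neuregulin ligand of ERBB3, was at 709 ± 34.5 in MDA-MB-231 and had no reads in MDA-MB-468, at least 234-fold lower. MDA-MB-468 thus had more EGFR transcript and, for 6 of 8 ligands, less ligand transcript.

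Genes induced by ERK signaling were almost all higher in MDA-MB-231. Of 23 members, all tested, 21 were higher in MDA-MB-231, compared with 0 in MDA-MB-468, with a median of -3.63. DUSP6, an ERK phosphatase that ERK induces, was at 9006, 9491, 9381 and 9455 in MDA-MB-231 and at 75.9, 90.7, 86.7 and 88.0 in MDA-MB-468 (log2 difference -6.76, standard error 0.05, adjusted p 4.20e-14 in limma). FOSL1, an AP-1 subunit, was at 7346 ± 213 against 52.3 ± 15.9, and SPRY4, a Sprouty inhibitor of the pathway, at 4754 ± 216 against 51.0 ± 12.1. All 5 phosphatases and all 6 Sprouty family genes were at least 2-fold higher in MDA-MB-231. EGR1 was called under 2-fold (-0.45) and EPHA4 was not called (0.11), both chosen after their values were seen.

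Genes of the RB and E2F list went in both directions. Of 32 RB and E2F genes, 6 were higher in MDA-MB-468 and 7 in MDA-MB-231, near the shares over all genes, with a median of 0.07. Of 16 replication genes, 4 were higher in MDA-MB-468, near the share over all genes, and 1 in MDA-MB-231, while 10 were called under 2-fold. The 4 were led by PCNA (the polymerase clamp, log2 fold change 2.11, 6958 ± 233 against 1613 ± 40.8) and MCM6 (the replicative helicase, 2.04). Of 8 mitotic genes, 0 were higher in MDA-MB-468 and 4 in MDA-MB-231, among them the kinase gene AURKA (-1.25, 926 ± 21.2 against 2201 ± 15.7). E2F2, an activator, was higher in MDA-MB-468 (3.54), and E2F7, a repressor, was higher in MDA-MB-231 (-4.85, 155 ± 8.18 against 4501 ± 108).

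Insulin-like growth factor binding proteins differed widely, in both directions. Of 26 members, 7 were higher in MDA-MB-468 and 9 in MDA-MB-231. All 7 binding proteins differed by at least 2-fold, 3 higher in MDA-MB-468 and 4 in MDA-MB-231. IGFBP5 was at 4366 ± 134 in MDA-MB-468 and 5.21 ± 4.42 in MDA-MB-231, and IGFBP3 at 11084 ± 193 and 505 ± 15.3. IGFBP1 showed the reverse, at 4.11 ± 2.09 in MDA-MB-468 and 888 ± 64.6 in MDA-MB-231. The leukocyte-type PI3K catalytic subunit gene PIK3CD was at 15.4 ± 3.10 and 698 ± 22.3.

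In the TGF-beta and BMP list 6 of 30 genes were higher in MDA-MB-468 and 12 in MDA-MB-231, with a median of -0.47. The BMP targets ID3 (624 ± 64.0 against 12.8 ± 3.20) and ID2 (211 ± 21.9 against 5.47 ± 2.93) were higher in MDA-MB-468, the line with 6 SMAD4 reads in all. BMP7 was at 431 ± 30.6 with 1 read in MDA-MB-231, whereas BMP4 was at 206 ± 8.10 and 2559 ± 52.1, and the activin antagonist FST at 22.9 ± 6.39 and 2698 ± 69.6.

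Of 34 Notch and Wnt genes, 15 were higher in MDA-MB-468 and 14 in MDA-MB-231, each above the shares over all genes, and 5 were called under 2-fold. NOTCH3 was at 7977, 7115, 7766 and 7976 in MDA-MB-468 and at 24.3, 24.5, 29.1 and 15.4 in MDA-MB-231 (log2 difference 8.34, standard error 0.15, adjusted p 6.24e-12 in limma). The ligand gene WNT6 was at 1714 ± 24.9 with no reads in MDA-MB-231, at least 656-fold. The Wnt effector LEF1 (174 ± 14.8 against 0.198 ± 0.395) and the receptor FZD8 (1116 ± 82.6 against 4.71 ± 2.19) were higher in MDA-MB-231. Of 14 YAP targets, 8 were higher in MDA-MB-231, compared with 1 in MDA-MB-468. ANKRD1 was at 7014 ± 167 in MDA-MB-231 against 178 ± 21.4 in MDA-MB-468, and YAP1 itself, chosen after its values were seen, was at 4606 and 4575 and was not called.

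Inflammatory genes were higher in MDA-MB-231 for the greater part. Of 28 cytokine and NF-kB genes tested, 15 were higher in MDA-MB-231, compared with 4 in MDA-MB-468, with a median of -1.16. TLR4, the endotoxin receptor, was at 2065, 2126, 2112 and 2410 in MDA-MB-231 with no reads in MDA-MB-468, at least 718-fold lower. PTGS2 (cyclooxygenase 2) had no reads in MDA-MB-468 (at least 84.7-fold lower), and IL11, at 453 ± 16.9 in MDA-MB-231, was lower in the other line, with a log2 difference of -5.18. CXCL16, a membrane-bound chemokine, went the other way, at 442 ± 24.5 in MDA-MB-468 and 7.74 ± 3.10 in MDA-MB-231.

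Of 34 interferon and antigen presentation genes, 16 were higher in MDA-MB-231, compared with 4 in MDA-MB-468. The interferon-stimulated genes were not uniform: 13 of 20 were higher in MDA-MB-231, among them IFI27 (295 ± 26.0 against 1.40 ± 0.968), while MX1 was at 998, 1014, 916 and 909 in MDA-MB-468 and at 104, 93.9, 111 and 105 in MDA-MB-231. OAS1 (2.96) was also higher in MDA-MB-468. The class II genes CD74 (6137 ± 515 against 2.01 ± 0.944) and HLA-DRA (971 ± 57.3 against 2 reads in all) were high in MDA-MB-231, and 9 of 14 antigen presentation genes were called under 2-fold.

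Surface antigens differed gene by gene. Of 26 tested, 10 were higher in MDA-MB-468 and 11 in MDA-MB-231. PROM1, the CD133 gene, was at 2238 ± 20.8 in MDA-MB-468 with 2 reads in MDA-MB-231, and NECTIN4 at 1104 ± 82.6 with no reads (at least 423-fold). L1CAM (4268 ± 190 against 9.14 ± 1.61), MSLN (mesothelin, 1539 ± 129 against 41.7 ± 8.36) and CD274 (PD-L1, 236 ± 19.6 against 2.76 ± 1.53) were higher in MDA-MB-231. CD44 was abundant in both lines, at 25508 ± 580 in MDA-MB-468 and 17995 ± 325 in MDA-MB-231 (log2 difference 0.50, standard error 0.03, adjusted p 1.33e-08 in limma). Among S100 and annexin genes, 7 of 21 were higher in MDA-MB-468 and 9 in MDA-MB-231. S100A9 (1989 ± 89.9) and S100A7 (545 ± 38.0) had no reads in MDA-MB-231, S100A14 was at 4345 ± 91.4 with 9 reads, and S100A6 was at 59530 ± 2884 in MDA-MB-231 against 8962 ± 296.

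Glycolytic genes were more often higher in MDA-MB-231, and lactate transporter transcripts differed in opposite directions. Of 42 genes, 19 were higher in MDA-MB-231, compared with 7 in MDA-MB-468, with a median of -0.76. Of 19 glycolytic enzymes 10 were higher in MDA-MB-231 and 1, PFKFB2 (1.41), in MDA-MB-468. The lactate transporter gene SLC16A1 (MCT1) was at 1062, 1149, 1033 and 1142 in MDA-MB-468 and between 10.1 and 17.5 in MDA-MB-231. SLC16A3 (MCT4, a lactate exporter) was the mirror image, at 331 ± 27.7 in MDA-MB-468 and 7608 ± 285 in MDA-MB-231. The glucose transporter gene SLC2A3 (GLUT3) was at 23.5 ± 3.21 and 1351 ± 24.2, and MPC1, a subunit of the mitochondrial pyruvate carrier, at 1681 ± 55.5 and 203 ± 16.4.

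Serine and one-carbon genes included several large differences toward MDA-MB-468. Of 37 genes of amino acid metabolism, 13 were higher in MDA-MB-468 and 6 in MDA-MB-231, with a median of 0.04. PHGDH, the first enzyme of serine synthesis, was at 13820, 12451, 13866 and 13028 in MDA-MB-468 and at 1067, 1115, 1163 and 945 in MDA-MB-231 (log2 difference 3.63, standard error 0.06, adjusted p 3.63e-12 in limma). CBS, which commits homocysteine to cysteine synthesis, was at 4250, 4024, 4138 and 4123 in MDA-MB-468 with no reads in MDA-MB-231, at least 1583-fold. ALDH1L2, a mitochondrial folate enzyme, was at 920 ± 10.6 and 2.39 ± 1.07, and PRODH (proline oxidation) at 376 ± 29.6 with 4 reads in MDA-MB-231. The branched-chain transaminase BCAT1 was at 2.17 ± 0.907 in MDA-MB-468 and 3328 ± 199 in MDA-MB-231, and the cystine transporter SLC7A11 at 931 ± 29.3 and 3754 ± 163.

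Among 34 lipid genes tested, 4 were higher in MDA-MB-468 and 9 in MDA-MB-231, against 25.7% and 21% of all genes tested. A further 19 were called under 2-fold, which is common among all genes. The sterol genes SQLE (2.29) and MVD (1.91) were higher in MDA-MB-468, while the elongase ELOVL6 (2269 ± 67.1 against 12.5 ± 5.20) and the acyl-CoA synthetase ACSL5 (2072 ± 83.0 against 43.2 ± 7.57) were higher in MDA-MB-231, where FABP5 was at 356 ± 19.8 with no reads in MDA-MB-468. Of 32 redox genes, 7 were higher in MDA-MB-468 and 10 in MDA-MB-231. AKR1C2 (4643 ± 108 against 4.76 ± 3.01) and AKR1C1 (2381 ± 72.9 against 24.9 ± 7.73), aldo-keto reductases close enough in sequence to share reads, were higher in MDA-MB-468, and GPX3 and GSTM1 in MDA-MB-231, at 1122 ± 40.8 and 347 ± 9.10 against 14.4 ± 3.45 and 1.15 ± 1.65.

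Cancer germline genes, which are normally restricted to testis, were on in both lines but as different members. Of 21 listed, 12 were found and tested, 5 higher in MDA-MB-468 and 7 in MDA-MB-231, so that all 12 differed. With the length correction, for which not every member has a transcript length, the counts were 3 and 6. MAGEA3 (3496 ± 168), MAGEA6 (4377 ± 71.5) and MAGEA12 (2131 ± 112) were high in MDA-MB-468, with totals of 3, 29 and 1 reads in MDA-MB-231, and since these copies are near-identical the reads could be divided among them. MAGED4B (216 ± 95.0), SPANXB1 (158 ± 11.2) and XAGE1A (124 ± 59.4), also with near-identical copies, had no reads in MDA-MB-468. Of 30 apoptosis regulators, 6 were higher in MDA-MB-468 and 8 in MDA-MB-231, and 16 were called under 2-fold. The BH3-only genes BCL2L11 (765 ± 43.7 against 129 ± 13.9) and BIK (127 ± 8.67 against 5.92 ± 2.26) were higher in MDA-MB-468, and the TRAIL receptor gene TNFRSF10B (3258 ± 34.7 against 622 ± 17.4) in MDA-MB-231.

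Housekeeping and respiratory chain genes mostly differed by under 2-fold. Of 48 housekeeping genes all passed the filter, 3 were higher in MDA-MB-468, 1 in MDA-MB-231 and 44 were called under 2-fold, with a median of 0.29. The 4 were EEF2 (1.04), RPS19 (1.04), SDHA (1.09) and the proteasome subunit PSMD2 (-1.56). Of 23 nuclear-encoded respiratory chain genes, 2 were higher in MDA-MB-468 and 1 in MDA-MB-231, with a median of 0.26. Quantile scaling turned the housekeeping counts to 9 higher in MDA-MB-468, and the length correction to 0 higher in MDA-MB-468 and 2 in MDA-MB-231, so no direction is given for these lists.

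Markers of other cell types were a small part of each library in sum, but some were well expressed. Of 36 listed, 18 were found and 16 passed the filter, 6 higher in MDA-MB-468 and 5 in MDA-MB-231. Their summed normalized read count was 3717 to 4037 in MDA-MB-468 and 5981 to 6397 in MDA-MB-231, at most 0.0366% of a library. FABP4, an adipocyte gene, had no reads, the endothelial cadherin gene CDH5 was at 0.593 and 0.502, and the leukocyte gene PTPRC was at 8.77 and 12.5 and was not called. MBP, at 152 CPM in MDA-MB-231 (normalized read counts of 615 ± 37.2 in MDA-MB-468 and 2639 ± 83.6 in MDA-MB-231), MITF (109 ± 6.17 and 574 ± 24.5), KDR (556 ± 17.8 and 235 ± 23.7) and CD14 (94.2 ± 15.2 and 16.6 ± 0.756) were among the 11 called, as was LYZ, chosen after its values were seen, at 86.5 in MDA-MB-231 with no reads in MDA-MB-468. Their part in the results above was not tested. In bulk RNA, fewer cells of a kind and less RNA per cell cannot be told apart.

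The same comparison was made in the 8 libraries from 25 mM glucose, which share no sample with those in 5 mM. There 4002 of 16470 genes tested (24.3%) were at least 2-fold higher in MDA-MB-468 and 3465 (21%) in MDA-MB-231. Of 7436 genes at least 2-fold apart in 5 mM and tested in both, 6417 were called the same way at 2-fold or more in 25 mM, and 50 had the opposite sign, 12 of them called. VIM differed by -12.09 in 5 mM and -11.74 in 25 mM, CDH1 by 8.28 and 7.95, EGFR by 2.78 and 2.82, and PHGDH by 3.63 and 3.45. The line difference itself depended on glucose, by at least 1 on the log2 scale with a limma adjusted p under 0.05, in 648 of 16637 genes.

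**Figure D5:**
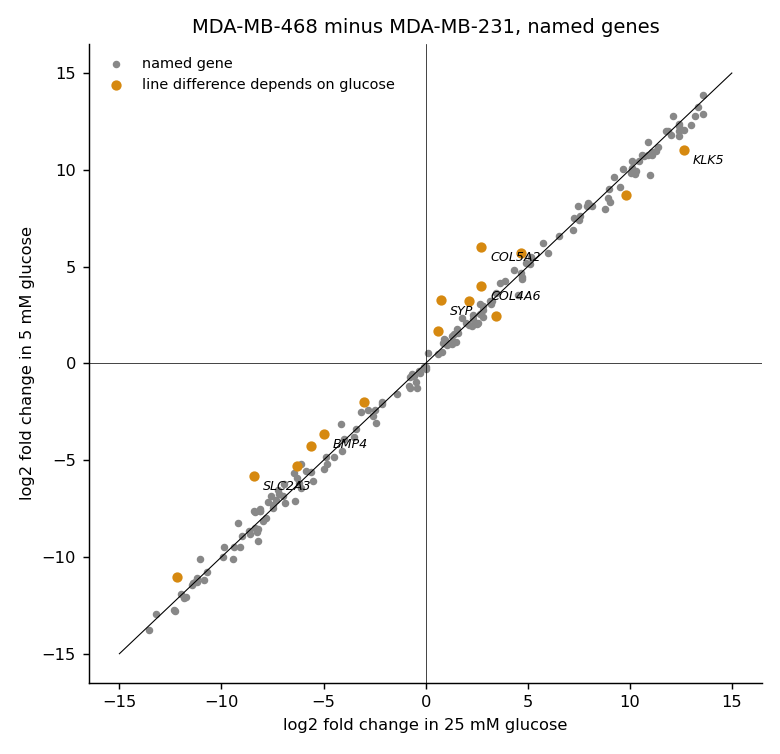
Log2 fold change, MDA-MB-468 minus MDA-MB-231, of the named genes in 25 mM glucose (horizontal) and in 5 mM glucose (vertical), with 4 libraries per line at each level. The line marks equal values and orange points are the 15 named genes whose line difference depended on glucose, among them COL5A2 (6.01 in 5 mM, 2.73 in 25 mM) and SLC2A3 (-5.79 and -8.42).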

How the data were processed

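RNA of 2 cell lines, MDA-MB-468 and MDA-MB-231, was sequenced after 48 hours in 5 or 25 mM glucose. The labels gave 4 groups of 4 replicates. The study's methods describe trimming and alignment with TopHat to the human genome hg19 for patient tumors and name no separate aligner for the cell lines. The submitters' processing notes name hg38. The authors deposited 1 table of normalized read counts. Each value is a signal, a whole number of reads divided by a factor of its library, as deposited by the authors. Dividing by the smallest step gave whole reads for 100% of the values (tolerance 0.001, largest deviation 5.82e-05), with 14275499 to 24425916 reads in the 8 libraries used.

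Genes at 0.5 CPM in at least 2 of the 8 libraries were tested with limma 3.58.1 (R 4.3.3) on log2(value + 1), with a trended prior and Benjamini-Hochberg adjustment over all 16637 genes. A gene was called at an adjusted p under 0.05. The edgeR 4.0.16 quasi-likelihood test on the recovered reads called 14317 genes. On simulated counts for this comparison (16637 genes), limma recovered 200 of 200 changed genes with 13 false calls and edgeR 200 with 15. Only these 200 genes were changed, each by 1 on the log2 scale, drawn from genes with a mean above 5 CPM. All genes had a common dispersion. The simulation therefore does not show how the tests do on weaker genes or where most genes differ. Alternatives were other scalings, pseudocounts and filters, DESeq2 1.42.0, the replicate number as a block, and each replicate left out.

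Symbols were matched for 16633 of 18332 gene IDs and GRCh37 positions for 17647. Named genes are a set of identity genes, the 10 largest differences in each direction, the 3 largest in each direction of each list, and the 10 most abundant silent genes of each line. For the last 3 the values of the lines could not overlap, and for differences the higher line had to reach 5 CPM. The comparison and the gene lists were chosen with earlier results of these data known. Of the listed genes, 56 were not found by symbol and were not analyzed here. Some genes are not reported here.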

Additional observations from a re-analysis of the deposited data

Results flagged for a closer look

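In 376 groups of 4 libraries (188 named genes in each line in 5 mM glucose), 14 held 1 library that lay far from the other 3, its gap to the nearest taking up most of the group's range, and chance alone singles out about 1 group in 20. In MDA-MB-468 the highest library stood apart for ESR1 (69.68, next 54.79), VTCN1 (5425, next 5083), KRT80 (1542, next 1457), GRB7 (467.4, next 403.7) and PSMD2 (4142, next 4016). The lowest MDA-MB-468 library stood apart for ITGB8 (669, next 725.6), THBS1 (1900, next 2060) and SLC16A3 (289.8, next 342.2). In MDA-MB-231 the highest library stood apart for SMAD4 (1264, next 1190), AURKA (2225, next 2194) and SLC2A3 (1387, next 1341). The lowest stood apart for CST1 (7117, next 8221), and for AZGP1 and AKR1B10, each at 0 with a next value of 2.86.

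For 15 named genes the log2 line difference in 5 mM minus that in 25 mM was at least 1 in size with an adjusted p under 0.05 in limma over the 16 libraries. The largest was COL5A2 (3.28, adjusted p 4.08e-06), followed by the glucose transporter gene SLC2A3 (2.62, adjusted p 4.28e-05) and SYP (2.52, adjusted p 4.61e-07). The others above 0 were BMP4 (1.35), ALDH1L1 (1.33), COL4A6 (1.28), CD74 (1.11), TNFAIP2 (1.08), CXCL16 (1.05), MX1 (1.05), SLC7A11 (1.03) and ANKRD1 (1.01), with adjusted p from 1.03e-09 for TNFAIP2 to 0.0251 for COL4A6. Those below 0 were KLK5 (-1.60, adjusted p 0.0149), GABRP (-1.12, adjusted p 0.00593) and CD14 (-1.03, adjusted p 0.00428). Some of the 15 rest on few reads, where the added 1 weighs on the size. In MDA-MB-468, CD74 was at 2.01 in 5 mM and 0.211 in 25 mM, ALDH1L1 at 4.23 and 1.42, and SLC2A3 at 23.5 and 3.60.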

How the results depend on the processing

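The number of silent genes moved with its limits. With at most 0 reads in the silent line it was 151 for MDA-MB-231 and 145 for MDA-MB-468, and with at least 1 CPM in the expressing line it was 653 and 480, against 321 and 262, since these limits admit fewer or more genes. With the replicate block, 7518 genes were called higher in MDA-MB-468 (against 7529) and 6740 in MDA-MB-231 (against 6758), and at 2-fold or more 4291 (against 4273) and 3502 (against 3491). Deviations of libraries with the same number correlated at 0.0219, -0.0165, 0.00802 and 0.0011, so they share only a number. Of the calls, the share higher in MDA-MB-468 was 52.7%, against 47.5% with the length correction and 57.4% with library totals. Over 21 settings no named gene reversed, but most were chosen for a difference in these same libraries, which makes a reversal unlikely beforehand. The call was lost in 3 values of 2 genes, for which the cause was not tested. They were ATP5F1A (-0.02, quantile scaling) and SDHC (-0.05 with library totals, -0.07 with quantile scaling). List counts moved in 14 cases in 5 of 60 counts, among them YAP targets higher in MDA-MB-468 (0 with a pseudocount of 8 or quantile scaling, against 1), cancer germline genes (3 with the length correction, against 5) and respiratory chain genes (0 to 4, against 2, and 1 without MDA-MB-231 replicate 4 or MDA-MB-468 replicate 1).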
